A study of Homo sapiens with 6 samples.

Results

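Serine is made from the glycolytic intermediate 3-phosphoglycerate by PHGDH, PSAT1 and PSPH in turn. The serine hydroxymethyltransferases SHMT1, in the cytosol, and SHMT2, in mitochondria, then pass a carbon of serine to tetrahydrofolate and release glycine. In mitochondria MTHFD2 oxidises the folate-bound carbon, MTHFD1L releases it as formate for export, and ALDH1L2 can burn it to CO2. In the cytosol MTHFD1 takes formate up again for the synthesis of purines, thymidylate and methionine. The 9 genes of these enzymes were chosen by name, with earlier results of these data known. Counts of these and of related genes, set beside shares of all genes below, are therefore descriptions and not tests. All 9 genes were found by Ensembl identifier among the 20308 genes of the tables. They comprised 3 of serine synthesis, 2 of the cytosolic folate pathway and 4 of the mitochondrial one.

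Expression was measured by RNA sequencing of total RNA in LNCaP-AI, an androgen-independent derivative of the LNCaP prostate cancer line that stands for castration-resistant disease. There were 3 libraries of cells with a short hairpin against METTL1 (shMETTL1) and 3 of cells with a scrambled hairpin (shscramble), both under androgen deprivation. METTL1 is the methyltransferase of the METTL1-WDR4 complex, which adds N7-methylguanosine to RNA. The study describes lines with stable silencing of METTL1 and lists 1 hairpin against it. Effects of that hairpin apart from METTL1 cannot be told apart from effects of METTL1 loss. The methods of the study mention biological replicates for its data as a whole, and the labels do not say whether these libraries came from separate cultures, so p-values measure only the spread between them.

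Each table gave, per gene, an FPKM value (fragments counted relative to transcript length and library depth) and an estimated count. Summed over genes, these counts came to between 3515215 and 3604835 in shMETTL1 libraries and between 3389897 and 3547838 in shscramble libraries. These sums do not give sequencing depth, because the counts appear to have been scaled library by library. METTL1 itself had 8.35, 10.5 and 8.18 FPKM in shMETTL1 replicates 1, 2 and 3, against 13.9, 18.5 and 21.0 in shscramble replicates 1, 2 and 3, so the groups did not overlap. Its mean FPKM was 50.7% of that in shscramble (exact two-sided permutation test, p = 0.1, the smallest that 3 libraries against 3 allow). Its log2 fold change was -0.93 by limma (adjusted p = 0.127) and -1.36 by edgeR (adjusted p = 0.0368). The edgeR call was lost without shMETTL1 replicate 1, shMETTL1 replicate 3 or shscramble replicate 3, with adjusted p of 0.142, 0.109 and 0.187. All 9 prostate luminal markers were detected in every library, with a summed level of 1955 to 2218 FPKM in shMETTL1 libraries and 2472 to 2532 FPKM in shscramble libraries, a difference whose part in the results was not tested. Of 9 markers of basal, stromal, blood or neuroendocrine cells, 4 (KRT5, DCN, PTPRC and CHGA) were at 0 in all 6 libraries, and the summed level was 6.18 to 11.6 FPKM in shMETTL1 libraries and 9.94 to 15.0 FPKM in shscramble libraries. In bulk RNA, fewer cells of a type and less RNA per cell cannot be told apart.

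Of the 9 enzymes, the 3 of serine synthesis and the mitochondrial SHMT2, MTHFD2 and MTHFD1L had higher mean FPKM in shMETTL1 libraries, with fitted fold changes of 1.13 (PHGDH) to 2.08 (PSAT1), while the cytosolic SHMT1 and MTHFD1 had log2 fold changes near or below 0. By limma on log2(FPKM + 0.5), with p-values adjusted over 12156 genes by the Benjamini-Hochberg method, 0 of the 8 enzymes tested passed an adjusted p of 0.05, where 0.123% of all genes passed in either direction. Unadjusted, a p under 0.05 was reached by 4 that were higher (PSAT1, PSPH, SHMT2 and MTHFD1L) and by 0 that were lower, and over all genes tested by 7.37% higher and 6.8% lower. By the quasi-likelihood test of edgeR on the estimated counts, 4 of 8 rose (PSAT1, PSPH, MTHFD1L and MTHFD2) and 0 fell, against 2.68% of all genes tested that rose and 3.65% that fell. The thresholds that the study used, a fold change above 1.5 with an unadjusted p under 0.05, were met upwards by 3 of 8 (PSAT1, PSPH and MTHFD1L) and by 4.59% of all genes. PSPH passed narrowly, at 1.505-fold (log2 fold change 0.590). It fell below 1.5-fold with pseudocount 1 (0.582), quantile normalization (0.572) and median-ratio scaling (0.563). ALDH1L2 was below the minimum mean of 0.5 FPKM and was not tested.

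**Figure D1:**
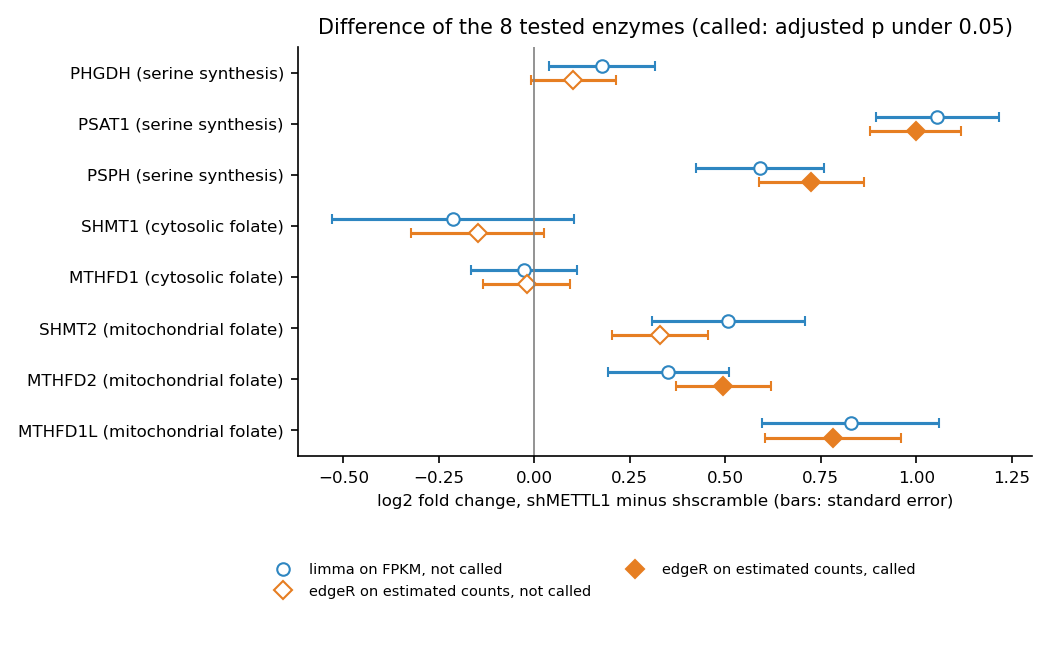
Difference (log2) of shMETTL1 minus shscramble for 8 enzymes by limma on FPKM (circles) and edgeR on estimated counts (diamonds), with standard errors; filled symbols passed an adjusted p of 0.05. The 4 filled diamonds are PSAT1, PSPH, MTHFD2 and MTHFD1L, and the 2 cytosolic folate enzymes lie at or left of 0 by both methods.

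The levels themselves separated the groups for the same 4 genes. PSAT1, PSPH, MTHFD2 and MTHFD1L had FPKM values that were higher in every shMETTL1 library than in any shscramble library, and 10.5% of all genes tested did so, whereas 9.33% lay lower without overlap and none of the 8 enzymes was among them. The estimated counts of these 4 genes did not overlap either. The median log2 fold change by limma was 0.59 for the 3 serine synthesis enzymes, -0.12 for the 2 cytosolic folate enzymes and 0.51 for the 3 mitochondrial folate enzymes tested, beside 0.02 over all genes tested. The cytosolic median was 0.04 without shscramble replicate 2 and -0.32 without shscramble replicate 1.

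**Figure D2:**
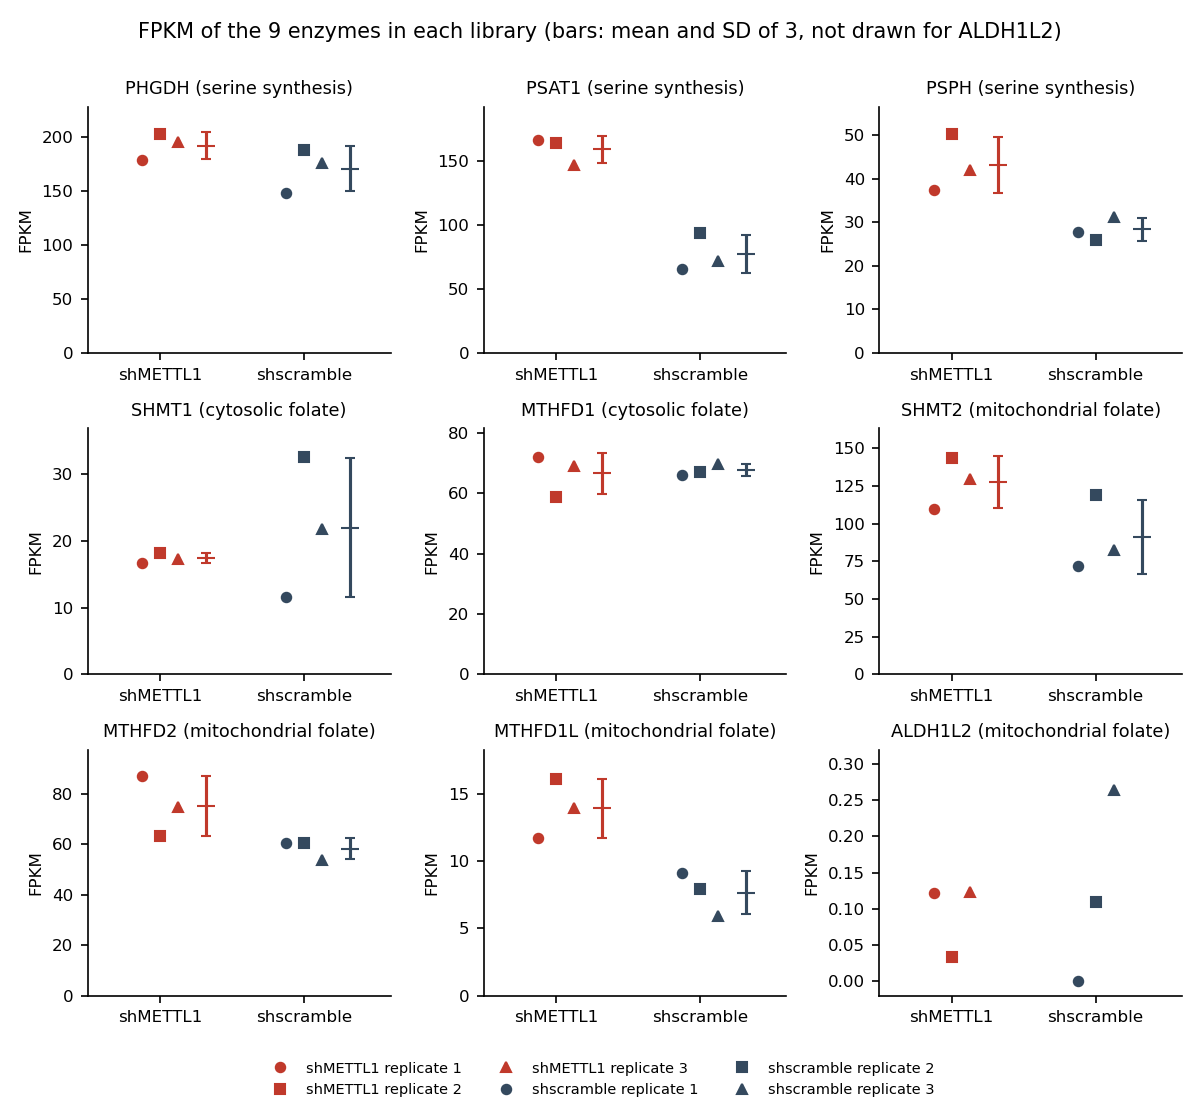
FPKM of each enzyme in every library, with shMETTL1 (red) left of shscramble (dark blue), symbols for replicates, and the mean and SD of 3 libraries (not drawn for ALDH1L2). PSAT1, at 147 to 167 FPKM in shMETTL1 and 65.6 to 93.8 FPKM in shscramble, has the largest gap in FPKM between the groups, and the SHMT1 values of shscramble span 11.6 to 32.4 FPKM.

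The sequence before the gene start was examined because ATF4, a transcription factor that controls serine and one-carbon genes, and MYC, which binds E-boxes, both act at promoters. RefSeq promoters (GRCh38.p14, 250 bases before to 50 after the start) were matched for 6 of the 9 genes, and PSPH, SHMT2 and ALDH1L2 were not matched. The start used was not always the outermost of the gene as placed below. For PHGDH it was 119711934, where the gene begins at 119648411, and for MTHFD1L 150866486, where it begins at 150865549. Other starts were not searched. The motif TGATGNAA, the core of the C/EBP-ATF response element, and CACGTG, an E-box, were searched on both strands, and they share no bases with each other in the matches below. TGATGNAA was in 1003 of 27305 promoters (3.67%) and CACGTG in 2030 (7.43%). The MTHFD1L promoter (chr6:150866236-150866535, plus strand, the first of 4 entries) held both, TGATGNAA 129 bases and CACGTG 154 bases before the start. The promoter of its cytosolic counterpart MTHFD1 (chr14:64388103-64388402, plus strand) held CACGTG alone, 15 bases before the start. PSAT1 (chr9:78296875-78297174, plus strand) and MTHFD2 (chr2:74198365-74198664, plus strand), with PHGDH and SHMT1, held neither in this window, which says nothing about the binding of either factor. The promoters of the 3 matched genes that rose by edgeR and of MTHFD1 are printed for comparison, with motif matches in capitals.
MTHFD1L: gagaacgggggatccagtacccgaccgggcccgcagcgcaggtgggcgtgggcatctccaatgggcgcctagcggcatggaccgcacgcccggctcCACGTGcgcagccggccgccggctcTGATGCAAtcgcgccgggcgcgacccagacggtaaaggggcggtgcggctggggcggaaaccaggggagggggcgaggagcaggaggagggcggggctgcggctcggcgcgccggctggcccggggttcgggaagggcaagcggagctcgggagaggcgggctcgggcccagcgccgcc
MTHFD1: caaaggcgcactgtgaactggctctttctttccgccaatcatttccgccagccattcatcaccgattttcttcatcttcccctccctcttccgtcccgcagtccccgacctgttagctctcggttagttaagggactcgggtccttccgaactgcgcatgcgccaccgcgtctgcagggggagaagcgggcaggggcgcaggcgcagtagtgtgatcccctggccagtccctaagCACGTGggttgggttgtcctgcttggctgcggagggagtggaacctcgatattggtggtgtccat
PSAT1: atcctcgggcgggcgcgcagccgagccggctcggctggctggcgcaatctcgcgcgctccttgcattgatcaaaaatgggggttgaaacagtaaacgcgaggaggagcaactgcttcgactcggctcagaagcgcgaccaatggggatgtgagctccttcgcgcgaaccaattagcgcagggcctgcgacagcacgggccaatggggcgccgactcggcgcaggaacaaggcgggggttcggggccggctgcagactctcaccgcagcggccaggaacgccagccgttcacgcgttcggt
MTHFD2: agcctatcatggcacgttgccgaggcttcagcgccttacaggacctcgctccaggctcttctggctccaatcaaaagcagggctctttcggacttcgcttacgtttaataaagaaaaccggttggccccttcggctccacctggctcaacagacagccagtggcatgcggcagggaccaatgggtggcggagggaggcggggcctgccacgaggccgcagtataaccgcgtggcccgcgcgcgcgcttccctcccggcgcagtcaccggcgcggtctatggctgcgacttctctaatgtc

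In serine synthesis the first enzyme was abundant in both groups. PHGDH, the dehydrogenase that commits 3-phosphoglycerate to serine (chromosome 1, 119648411 to 119744226 in GRCh38, as are the gene positions below, from GENCODE by gene identifier), had 178, 202 and 195 FPKM in shMETTL1 replicates 1, 2 and 3, against 148, 188 and 175 in shscramble replicates 1, 2 and 3. The groups overlapped, and the log2 fold change was 0.18 (SE 0.14, adjusted p = 0.590 by limma), with a 95% interval of -0.14 to 0.49. By edgeR it was 0.10 (SE 0.11, adjusted p = 0.636).

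PSAT1, the aminotransferase of the second step (chromosome 9, 78297143 to 78330093), had 167, 164 and 147 FPKM in the shMETTL1 libraries, against 65.6, 93.8 and 72.0 in the shscramble libraries. Its lowest shMETTL1 library stood above the highest shscramble library, replicate 2. The estimated counts were 1431, 1412 and 1285 in shMETTL1, against 569, 813 and 621 in shscramble. By edgeR PSAT1 rose 2.00-fold (log2 fold change 1.00, SE 0.12, adjusted p = 0.000161), and this call held in 6 of 6 fits that left out 1 library. By limma the fold change was 2.08 (log2 fold change 1.06, SE 0.16) and the adjusted p of 0.0542 lay just above the threshold. Without shscramble replicate 2 the limma fit gave an adjusted p of 0.0139, with median-ratio scaling of FPKM 0.0375 and with quantile normalization 0.0451.

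PSPH, the phosphatase that releases serine (chromosome 7, 56011051 to 56051604, minus strand), had 37.3, 50.1 and 41.9 FPKM in shMETTL1, against 27.8, 25.9 and 31.3 in shscramble. All 3 shMETTL1 values were above all 3 shscramble values. By edgeR it rose 1.65-fold (log2 fold change 0.73, SE 0.14, adjusted p = 0.00494), also in 6 of 6 fits without 1 library, and by limma the log2 fold change was 0.59 (SE 0.17, adjusted p = 0.179). Within a library the ratio of PSAT1 to PHGDH FPKM was 0.934, 0.810 and 0.753 in shMETTL1, against 0.444, 0.499 and 0.410 in shscramble, without overlap. The summed FPKM of the 3 enzymes was 382, 416 and 385 in shMETTL1, against 241, 308 and 279 in shscramble.

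Neither of the cytosolic folate enzymes was called by limma or by edgeR. MTHFD1, a single protein with 3 activities that makes 10-formyltetrahydrofolate and its oxidised and reduced relatives (chromosome 14, 64388031 to 64463457), had 71.9, 58.9 and 69.0 FPKM in shMETTL1, against 66.1, 67.2 and 69.8 in shscramble. The shscramble values lay within the range of the shMETTL1 values, and the log2 fold change was -0.03 (SE 0.14, adjusted p = 0.950 by limma, 95% interval -0.34 to 0.29). The sign depended on single libraries: it was 0.058 by limma and 0.062 by edgeR without shMETTL1 replicate 2, and 0.0055 by edgeR without shscramble replicate 1.

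SHMT1, the cytosolic serine hydroxymethyltransferase (chromosome 17, 18327860 to 18363563, minus strand), had 16.7, 18.2 and 17.3 FPKM in shMETTL1, against 11.6, 32.4 and 21.8 in shscramble. The shMETTL1 libraries were close together, and the shscramble libraries spread 2.79-fold in FPKM and 1.79-fold in estimated counts. The log2 fold change was -0.21 (SE 0.32, adjusted p = 0.791 by limma), with a 95% interval of -0.93 to 0.50, and it turned to 0.12 without shscramble replicate 2. By edgeR it was -0.15 (SE 0.17, adjusted p = 0.662).

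The mitochondrial folate enzymes had higher means in shMETTL1 for 3 of the 4 members. SHMT2, the mitochondrial serine hydroxymethyltransferase (chromosome 12, 57229327 to 57234935), had 109.6, 143 and 129.6 FPKM in shMETTL1, against 71.9, 119 and 82.2 in shscramble. The groups overlapped through shscramble replicate 2, and the log2 fold change was 0.51 (SE 0.20, adjusted p = 0.312 by limma) and 0.33 (SE 0.13, adjusted p = 0.130 by edgeR). Without shscramble replicate 2 the edgeR value was 0.44, with an adjusted p of 0.0108.

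MTHFD2, the mitochondrial dehydrogenase and cyclohydrolase, which is low in most resting adult tissues and high in many tumours (chromosome 2, 74198562 to 74217565), had 86.9, 63.2 and 74.7 FPKM in shMETTL1, against 60.5, 60.6 and 53.6 in shscramble. The lowest shMETTL1 library, replicate 2, stood only slightly above the 2 higher shscramble libraries. By edgeR MTHFD2 rose 1.41-fold (log2 fold change 0.49, SE 0.12, adjusted p = 0.0272), and by limma the log2 fold change was 0.35 (SE 0.16, adjusted p = 0.357).

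MTHFD1L, the mitochondrial formyltetrahydrofolate synthetase (chromosome 6, 150865549 to 151101887), had 11.7, 16.1 and 13.95 FPKM in shMETTL1, against 9.09, 7.95 and 5.95 in shscramble. Every shMETTL1 value was above every shscramble value. By edgeR it rose 1.72-fold (log2 fold change 0.78, SE 0.18, adjusted p = 0.0159), and by limma the log2 fold change was 0.83 (SE 0.23, adjusted p = 0.177). The edgeR calls of MTHFD1L and MTHFD2 were each lost without shMETTL1 replicate 1, shMETTL1 replicate 3 or shscramble replicate 3, with adjusted p up to 0.0782 for MTHFD1L and 0.169 for MTHFD2.

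ALDH1L2, the mitochondrial 10-formyltetrahydrofolate dehydrogenase (chromosome 12, 105019784 to 105084577, minus strand), was near the detection limit. It had 0.122, 0.0333 and 0.123 FPKM in shMETTL1, against 0, 0.109 and 0.264 in shscramble, from at most 8.38 estimated counts in a library. Its cytosolic relative ALDH1L1 was also low, at 0 to 0.214 FPKM in shMETTL1 and 0 to 0.932 FPKM in shscramble, and neither was tested. MTHFD2L, a mitochondrial relative of MTHFD2, had 8.28, 9.73 and 7.08 FPKM in shMETTL1, against 5.64, 5.27 and 9.71 in shscramble (adjusted p = 0.642 by limma).

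The compartments were compared within each library, where a ratio of FPKM does not depend on library scaling. SHMT2 over SHMT1 was 6.56, 7.87 and 7.50 in shMETTL1, against 6.18, 3.67 and 3.77 in shscramble. The highest shscramble ratio, in replicate 1, lay close to the lowest shMETTL1 ratio, and the ratio of estimated counts did not overlap between the groups either. MTHFD1L over MTHFD1 was 0.163, 0.273 and 0.202 in shMETTL1, against 0.138, 0.118 and 0.0853 in shscramble. MTHFD2 over MTHFD1 was 1.21, 1.07 and 1.08 in shMETTL1, against 0.915, 0.902 and 0.768 in shscramble, so MTHFD2 exceeded MTHFD1 in each shMETTL1 library and in no shscramble library.

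The summed FPKM of SHMT2, MTHFD2 and MTHFD1L was 208, 223 and 218 in shMETTL1, against 142, 188 and 142 in shscramble. The summed FPKM of SHMT1 and MTHFD1 overlapped, at 88.6, 77.1 and 86.3 in shMETTL1, against 77.7, 99.6 and 91.6 in shscramble. Mitochondrial over cytosolic sum was 2.35, 2.89 and 2.53 in shMETTL1, against 1.82, 1.88 and 1.55 in shscramble, with means of 2.59 ± 0.27 and 1.75 ± 0.18 (SD, n = 3 each). These ratios are descriptions of these libraries, and the difference between the compartments was not tested.

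**Figure D3:**
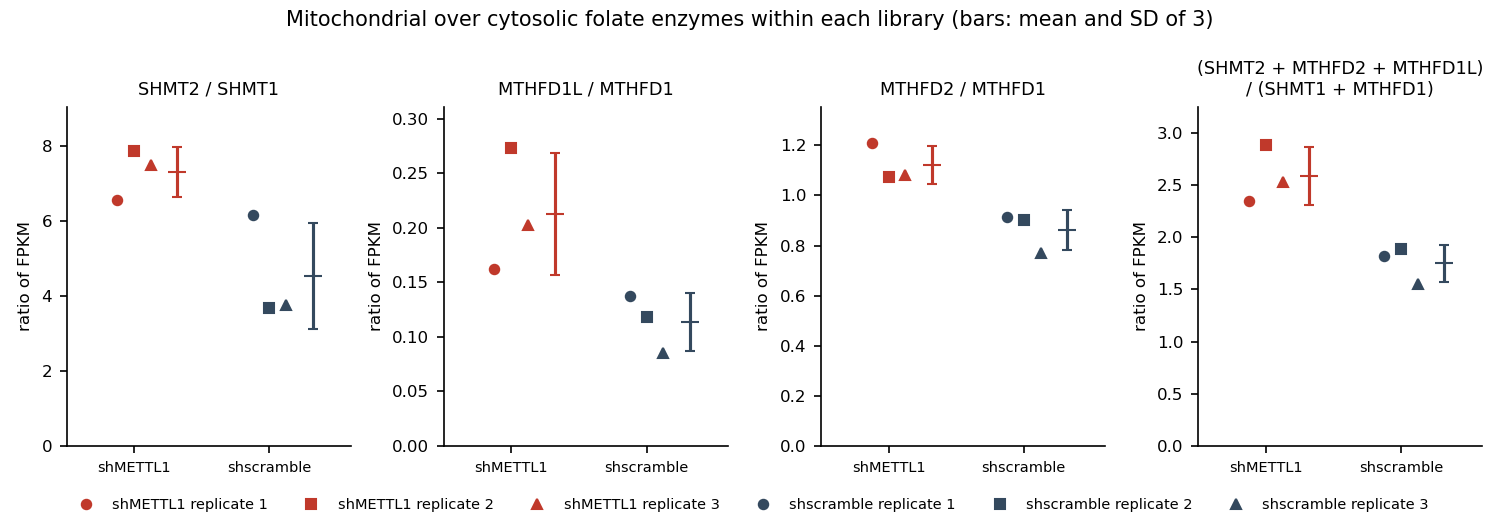
Ratios of mitochondrial to cytosolic folate enzymes in FPKM within each library, shMETTL1 (red) left of shscramble (dark blue), with mean and SD of 3. The summed ratio is 2.35 to 2.89 in shMETTL1 and 1.55 to 1.88 in shscramble.

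In order of FPKM the shMETTL1 libraries ran PHGDH, PSAT1, SHMT2, MTHFD2, MTHFD1, PSPH, SHMT1, MTHFD1L and ALDH1L2, and only MTHFD2 and MTHFD1 overlapped as neighbours. In the shscramble libraries SHMT2, PSAT1 and MTHFD1 followed PHGDH with overlapping ranges, then came MTHFD2, PSPH and SHMT1, of which the last 2 overlapped, and MTHFD1L and ALDH1L2 closed the order. By mean FPKM PSAT1 was the second enzyme in shMETTL1 and the third in shscramble, where its range overlapped those of SHMT2 and MTHFD1. Among the shscramble libraries, replicate 2 was highest for 5 of the 9 enzymes and replicate 1 lowest for 6.

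Other genes of serine and one-carbon metabolism were taken from 8 lists of enzymes, carriers and regulators, with 67 genes in the tables. By limma 0 of the 59 tested passed an adjusted p of 0.05, while an unadjusted p under 0.05 was reached by 9 upwards and by 4 downwards, and by edgeR 6 of 56 rose and 2 fell. The downward counts are near the shares over all genes given above. The carriers held 3 of the 6 that rose. SLC1A4, an exchanger of serine, alanine and cysteine, had 11.6, 10.2 and 13.6 FPKM in shMETTL1, against 2.88, 4.90 and 3.71 in shscramble, and rose 2.61-fold by edgeR (adjusted p = 0.000737). SLC6A9, the glycine transporter GLYT1, had 17.4, 13.6 and 14.2 FPKM in shMETTL1, against 5.72, 7.90 and 4.31 in shscramble, and rose 2.56-fold by edgeR (adjusted p = 0.00258). Neither gene's groups overlapped, and both calls held in 6 of 6 fits without 1 library. SLC1A5, a glutamine and serine carrier chosen after its value was seen, rose 1.65-fold by edgeR (adjusted p = 0.0121), called in 2 of those fits. SLC46A1, the proton-coupled folate transporter, had a log2 fold change of 0.96 by limma on FPKM (adjusted p = 0.247) and 0.31 by edgeR on estimated counts (adjusted p = 0.223).

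Of the enzymes that use serine, SPTLC1, a subunit of the serine palmitoyltransferase that starts sphingolipid synthesis, fell by edgeR. It had 16.0, 20.1 and 21.9 FPKM in shMETTL1, against 42.5, 39.3 and 54.9 in shscramble, with no overlap. Its log2 fold change was -1.21 (SE 0.16, adjusted p = 0.000325 by edgeR), in 6 of 6 fits without 1 library, and -1.21 (SE 0.19, adjusted p = 0.0589 by limma). PTDSS1, which makes phosphatidylserine, rose 1.40-fold by edgeR (adjusted p = 0.0381) but was called only without shscramble replicate 2 among the fits that left out 1 library. CBS, which joins serine to homocysteine, had a log2 fold change of 0.36 by limma (adjusted p = 0.363).

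In the rest of the folate cycle, GGH, a hydrolase of polyglutamated folate, had a log2 fold change of -0.39 by limma (adjusted p = 0.480).

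The 4 genes of the glycine cleavage system, which breaks glycine down in mitochondria, all had negative log2 fold changes by limma and 0 passed limma or edgeR, with 1 (GLDC) under an unadjusted p of 0.05 in each. GLDC, the decarboxylase that starts it, had 1.57, 1.42 and 0.745 FPKM in shMETTL1, against 1.98, 5.26 and 3.36 in shscramble (log2 fold change -1.16, adjusted p = 0.260 by limma). AMT and GCSH, an aminomethyltransferase and a carrier protein of the same complex, had -0.29 and -0.08.

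ATF4 had 670.1, 675 and 637 FPKM in shMETTL1, against 488, 423 and 475 in shscramble. All 3 shMETTL1 values were higher. It rose 1.36-fold by edgeR (adjusted p = 0.0272), called in 2 of 6 fits without 1 library, those without shscramble replicate 1 or 2, and by limma its log2 fold change was 0.52 (adjusted p = 0.114). MYC, which was added after its value was seen, had a log2 fold change of 0.00 by limma. KDM4C, a histone demethylase, had opposite signs in the 2 kinds of value: -0.90 by limma on FPKM (adjusted p = 0.216) and 0.05 by edgeR on estimated counts (adjusted p = 0.883). EHMT2, a histone methyltransferase, had 0.20 by limma on FPKM and -0.24 by edgeR.

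The methionine cycle, purine synthesis and lower glycolysis held 0 called genes by limma and by edgeR, and an unadjusted p under 0.05 was reached by ATIC in limma and by PAICS in edgeR. ATIC, the last enzyme of purine synthesis, which uses 10-formyltetrahydrofolate, had 188.8, 167 and 144 FPKM in shMETTL1, against 88.1, 142 and 111 in shscramble (log2 fold change 0.57, adjusted p = 0.245 by limma). PAICS and PPAT, earlier enzymes of that pathway, had -0.24 and 0.29. Of the genes with the smallest p in the other lists, MAT2B, a regulatory subunit of methionine adenosyltransferase, had 0.32, MAT1A -0.95 and AHCYL1 -0.16. The glycolytic PGAM1, GAPDH and PGK1 had 0.29, 0.26 and 0.15, and all 6 values were by limma with an adjusted p above 0.4. MAT1A lay at the floor, with a mean of 0.506 FPKM and at most 3.17 estimated counts in a library, and was not tested by edgeR.

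**Figure D4:**
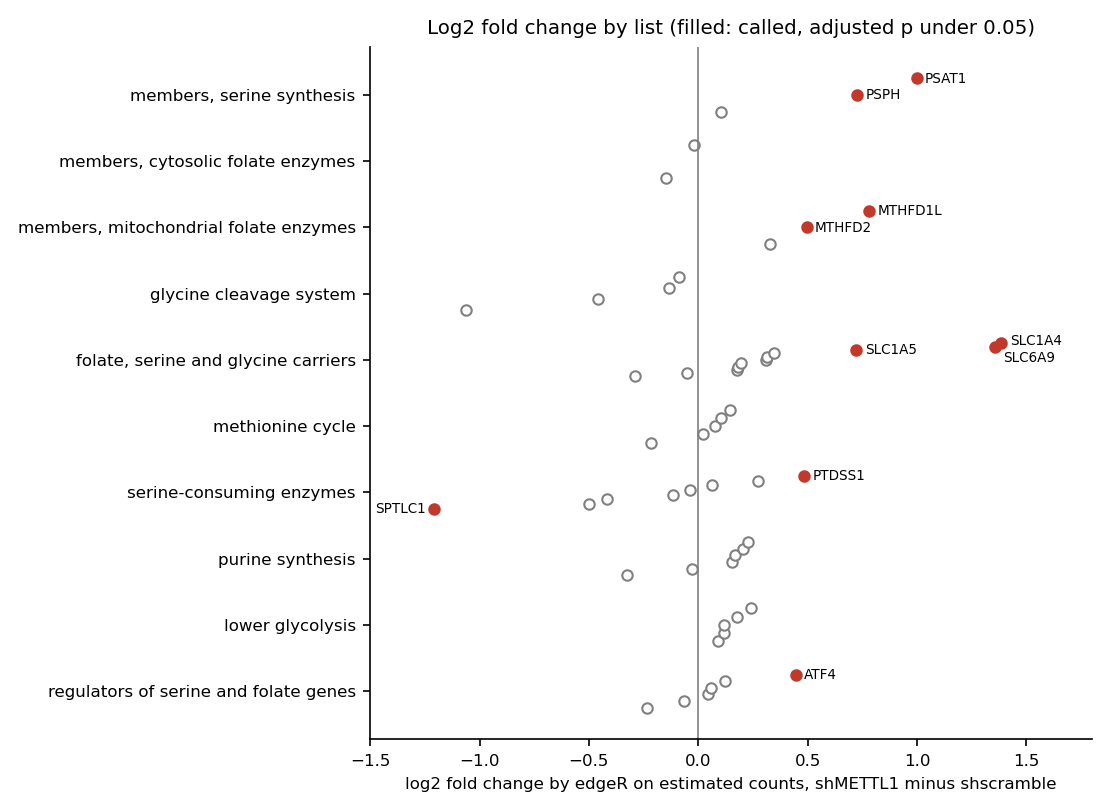
Log2 fold change by edgeR on estimated counts, shMETTL1 minus shscramble, of genes tested by both methods in the 3 groups of enzymes and in the lists shown; filled points passed an adjusted p of 0.05. SLC1A4 and SLC6A9 lie farthest right, at 1.39 and 1.35, and SPTLC1 farthest left, at -1.21.

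The genes whose profile over the 6 libraries was most like that of PSAT1 were found by Euclidean distance between centred log2(FPKM + 0.5) values among the 9331 genes that averaged at least 5 FPKM. They were ADM2 (distance 0.205), SIAH1 (0.286), ATP6AP1 (0.290), ZNF75A (0.312) and RHBDD2 (0.313). For MTHFD2 they were PAFAH1B3 (0.0614), PRKAG1 (0.130), PTDSS1 (0.162), MEAF6 (0.177) and MACIR (0.187).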

How the data were processed

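RNA was measured in 6 libraries. The genome build hg19 and the tools Cuffdiff, Cufflinks, HISAT2 2.0.4 and cutadapt 1.9.3 are listed in the notes of the submitters, without role or order, and strand is not stated. The authors deposited for each library 1 FPKM value and 1 estimated count per gene. FPKM deposited by the authors is relative to transcript length and depth, so a misassigned isoform moves FPKM. The estimated counts deposited by the authors were mostly fractional (1.8% to 2.51% whole within 0.001). Values of low genes lay in equal steps within a library, such as 2.72 (ALDH1L2), 4.08 (SYP) and 5.44 (FTCD) in shMETTL1 replicate 1. In shscramble replicate 2 such values were 0.868 (GNMT), 1.74 (MAT1A) and 2.61 (SYP). Other such values were 1.06 (ALDH1L2) in shMETTL1 replicate 2, 0.978 (FOLR1) in shMETTL1 replicate 3 and 0.934 (NNMT) in shscramble replicate 1. The counts thus appear scaled library by library, by factors that differ between libraries. Whether read depth differed between the groups was not tested. The reads behind the counts are not given, so no counting interval was computed. The edgeR, DESeq2 and log2 CPM fits took them as read counts, and the effect of this on their calls was not tested.

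The FPKM values were fitted with limma 3.58.1 (trend, robust) in R 4.3.3 on log2(FPKM + 0.5), which understates changes of low genes, without pairing, for genes that averaged at least 0.5 FPKM. Estimated counts were rounded and tested by the quasi-likelihood test of edgeR 4.0.16, and also by DESeq2 1.42.0 and, as log2 CPM (prior count 2), by limma. P-values were two-sided and Benjamini-Hochberg adjusted. Alternatives were other pseudocounts, filters and scalings, a replicate block and leaving out each library. The limma and edgeR fits were also run on simulated data with changes of known size. The simulation drew whole counts at equal depth, with FPKM in proportion to them. It therefore cannot show how the fits behave on these scaled, fractional counts. All 9 enzymes, METTL1, ATF4, ALDH1L1 and MTHFD2L were named. So were up to 3 tested genes of smallest limma p per list and the 5 nearest profiles, outside the enzymes, of PSAT1 and MTHFD2. Members and lists were chosen with earlier results of these data known. PECAM1 and 12 pseudogene copies of the enzymes matched no row by symbol and were not analysed here, and reads shared with such copies cannot be told apart. Some genes of the lists are not reported here.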

Additional observations from a re-analysis of the deposited data

How the results depend on the processing

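PHGDH, PSAT1, PSPH, SHMT2, MTHFD2 and MTHFD1L kept a positive log2 fold change under all 25 alternatives run, and no scaling moved the median of all genes by over 0.1. By limma the number of enzymes called (0) was 1 with median-ratio scaling or quantile normalization and 0 to 1 without 1 library. It was 4 with edgeR, also with no filter, DESeq2 size factors or a replicate block, 2 to 5 with edgeR without 1 library, 4 with DESeq2 and 4 with limma on log2 CPM. Of the other pathway genes (0 by limma), 0 to 4 were called by limma without 1 library, 8 by edgeR in the same 4 settings, 3 to 12 by edgeR without 1 library, and 8 by DESeq2 and by limma on log2 CPM. The limma count over all genes (15) was 4 with no filter, 6 with the replicate block and 3 to 189 without 1 library. That count was 712 by edgeR, 1094 with no filter, 709 with DESeq2 size factors, 1015 with the replicate block, 270 to 1989 without 1 library, 704 by DESeq2 and 748 by limma on log2 CPM. METTL1 (-0.93 by limma) was -1.36 by edgeR, -1.36 with no filter, -1.37 with DESeq2 size factors, -1.40 with the block, -1.72 to -0.80 over both tools without 1 library, -1.37 by DESeq2 and -1.36 by limma on log2 CPM. Without 1 library SHMT1 ran from -0.60 to 0.12, positive only without shscramble replicate 2 by limma, and MTHFD1 from -0.10 to 0.062, positive without shMETTL1 replicate 2 (0.058 by limma, 0.062 by edgeR) and, by edgeR, without shscramble replicate 1 (0.0055). The cause of these differences was not tested. Deviations of log2(FPKM + 0.5) from the mean of the own group correlated at 0.00, 0.05 and -0.02 between same-numbered libraries. Between differently numbered libraries they correlated at -0.05 to 0.05. This does not settle whether the replicate numbers mark pairs. The block changed no call of an enzyme within either tool. Adjusted p over the alternatives ran from 5.64e-14 to 0.214 for PSAT1, 0.000762 to 0.466 for PSPH, 0.00404 to 0.450 for MTHFD1L, 0.00485 to 0.626 for MTHFD2 and 0.0108 to 0.575 for SHMT2. Depth limits ALDH1L2, which has too few estimated counts for a comparison.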
